A study of Mus musculus with 24 samples.

Results

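Arc, the gene of the activity-regulated cytoskeleton-associated protein (ENSMUSG00000022602), was followed through light-stimulated muscle. It was 1 of 56941 genes in the tables of counts and TPM, and 1 of the 13318 genes that passed the filter on low counts. Arc was chosen by its measured difference between the 1 Hz and the control libraries, the largest rise among named coding genes with a mean of at least 5 CPM (counts per 1000000, on TMM-scaled library sizes). Its levels in those libraries, and each difference that uses them, are therefore given as a description with no test. Among the comparisons between conditions, Arc was tested in 10 Hz against 4 Hz alone, because it used none of the libraries by which Arc was chosen. Correlations within a condition use the deviations of libraries from their own mean, which the choice did not use.

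The study asked how optical exercise of different frequency changed the transcripts of engineered muscle. RNA was sequenced from 24 wells of C2C12, a line of mouse myoblasts, which carried the light-gated cation channel ChR2 tagged with tdTomato (genotype ChR2::tdTomato) in every condition, controls included. The cells were grown on fibrin gels and differentiated to contracting muscle in medium with horse serum and IGF-1. The 1 Hz, 4 Hz, and 10 Hz tissues received blue light pulses at that rate for 30 min on each day of differentiation, and the control tissues were not stimulated, with 6 libraries per condition. By the study's own account tissues of every condition also twitched spontaneously. The 6 wells per condition were biological replicates of 1 engineered line, so the spread between libraries is that between wells and not between lines or animals. How long after the last light the RNA was taken is not given in the sources used here.

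Arc is an immediate early gene, that is, one whose transcription starts within minutes of a stimulus without new protein. It is best known in excitatory neurons, where synaptic activity and calcium entry switch it on through CREB, MEF2, and SRF bound at an upstream enhancer, and where its protein draws AMPA receptors from the synapse by endocytosis. The protein descends from the Gag protein of a retrotransposon and assembles into capsids. In muscle, each contraction releases calcium, and the calcium-dependent kinases and phosphatases that act on CREB and MEF2 in neurons also act there on genes of fiber type and metabolism.

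In the GENCODE M39 annotation of GRCm39, Arc lies on the minus strand of chromosome 15 from 74540932 to 74544419. It has 3 exons. The coding sequence of 1188 bp (74543034 to 74544221) lies wholly in exon 1, which is 2006 bp long, and exon 2 (140 bp) and exon 3 (911 bp) are 3′ UTR. The lncRNA gene Gm32994 starts 99 bp from the start of Arc on the other strand. It had no row in the count table, and strand use in the counting is not given in the sources used here.

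Libraries held 4085578 to 15194554 counts, of which Arc took 144 to 2532. Values of single genes are in CPM unless TPM, which also divides by transcript length, is named. The smallest count, 144 in control replicate 6, gave 30.1 CPM with a 95% Clopper-Pearson interval of 25.4 to 35.5 CPM. The largest, 2532 in 1 Hz replicate 3, gave 172 CPM with an interval of 166 to 179 CPM. The reads carried no molecular identifiers, and these intervals cover counting error only.

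All 14 muscle markers were detected in every condition, with summed levels of 7716 ± 728 CPM in control, 12340 ± 1921 at 1 Hz, 12715 ± 2231 at 4 Hz, and 8988 ± 1462 at 10 Hz (SD, n = 6 each). Of 10 neuronal markers, Snap25, Rbfox3, Gad1, and Syt1, which mark mature neurons, had a mean under 0.25 CPM in each condition, and the rest (Map2, Tubb3, Syn1, Slc17a7, Camk2a, Dlg4) were detected. The 10-gene sum ranged from 129 to 176 CPM in control, 187 to 243 at 1 Hz, 167 to 200 at 4 Hz, and 144 to 200.9 at 10 Hz. Camk2a, which is also counted below among the genes upstream of Arc, had means of 44.6 CPM in control, 94.9 at 1 Hz, 94.2 at 4 Hz, and 67.6 at 10 Hz, while the synapsin gene Syn1 had 28.2, 24.2, 16.5, and 22.5 CPM and fell at 4 Hz (log2 fold change −0.77, edgeR adjusted p = 3.06e-06). The 5 adipocyte markers together stayed at or below 1.09 CPM and the 5 endothelial markers at or below 2.34 CPM in each library. Ptprc and Adgre1, which define leukocytes and macrophages, were at 0 in most libraries, while Cd68 was present at means of 82.8 to 96.2 CPM. Lum and Thy1 of the 5 fibroblast markers were near 0, and that list summed to 50.4 to 92.3 CPM. In such bulk samples a change in the number of cells of a type and a change in RNA per cell cannot be told apart.

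Arc was present in every library and was highest at 1 Hz, intermediate at 4 Hz, and low at 10 Hz and in control. In control replicates 1 to 6 it was at 34.3, 24.7, 39.4, 47.7, 36.5, and 30.1 CPM. At 1 Hz it was at 106, 164, 172, 217, 179, and 219 CPM. At 4 Hz it was at 120, 79.6, 94.3, 112, 106, and 152 CPM. Every library of these 2 frequencies lay above every control library, and 1 Hz replicate 1 was the lowest of its condition and within the range of 4 Hz. At 10 Hz Arc was at 40.6, 46.1, 34.3, 44.5, 53.2, and 70.3 CPM, where 2 of the 6 libraries lay above all controls. The means were 35.4 ± 7.92 CPM in control, 176 ± 41.6 at 1 Hz, 111 ± 24.7 at 4 Hz, and 48.2 ± 12.5 at 10 Hz (SD, n = 6 each). The SD was 22.3% of the mean in control, and the 1 Hz mean was 4.97 times the control mean.

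**Figure D1:**
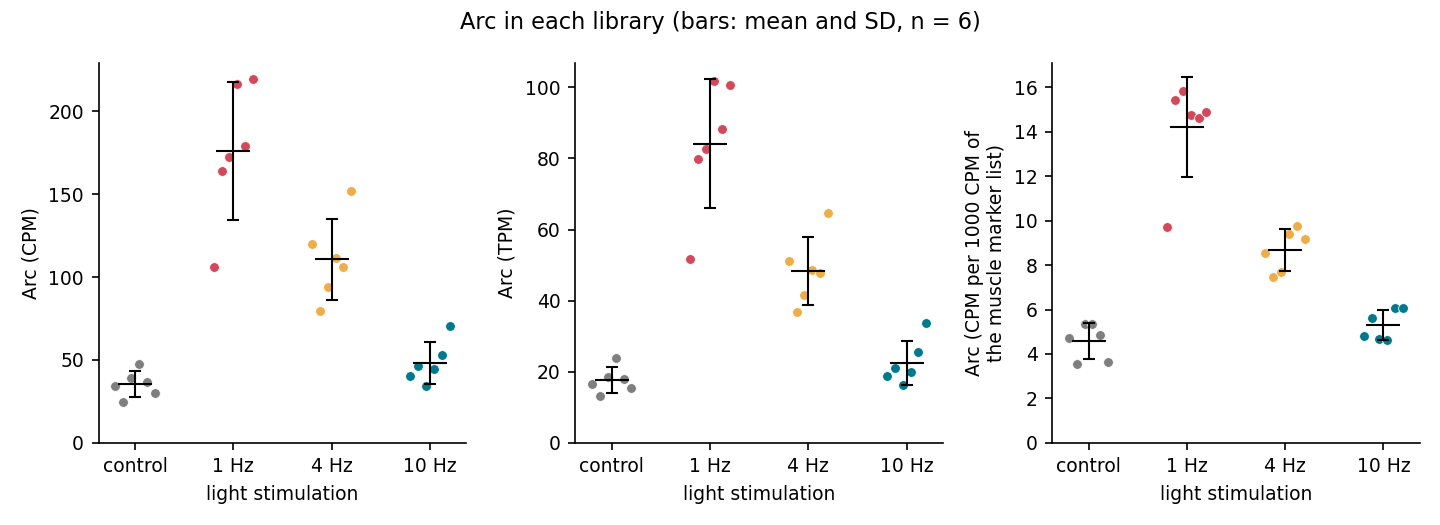
Arc in each of the 24 libraries by condition, as CPM (left), TPM (middle), and CPM per 1000 CPM of the summed muscle marker list (right), with the mean and SD of 6 libraries as bars. The 1 Hz and 4 Hz libraries lie above every control library in all 3 panels, and the 10 Hz libraries overlap control.

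On the length-corrected scale the order was the same. Arc had 17.6 ± 3.63 TPM in control, 84.2 ± 18.2 at 1 Hz, 48.4 ± 9.52 at 4 Hz, and 22.5 ± 6.24 at 10 Hz. Its mean rank among all 56941 genes by TPM was 6571 in control, 1988 at 1 Hz, 2995 at 4 Hz, and 5528 at 10 Hz.

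As a description, the edgeR log2 fold change over control was 2.31 ± 0.19 (SE) at 1 Hz, 1.64 ± 0.18 at 4 Hz, and 0.43 ± 0.19 at 10 Hz. These 3 comparisons share the 6 control libraries. Between the frequencies it was −0.67 ± 0.17 for 4 Hz against 1 Hz, where 2 of the 6 libraries at 4 Hz lay below all at 1 Hz, and −1.88 ± 0.18 for 10 Hz against 1 Hz, with no overlap. In the order of levels, 1 Hz and 4 Hz overlapped, 4 Hz and 10 Hz did not, and 10 Hz and control overlapped.

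By size of the log2 fold change at 1 Hz, Arc stood at place 16 of 13318. The pseudogene Gm10222 was just above it at 2.36. Among genes with a mean of at least 5 CPM, Arc was at place 4, behind Gm10925 (4.27), Gm10243 (2.39), and Gm10222, whose names are of the form given to predicted genes. It was followed there by Rps18-ps4 (2.21), Pitpnc1 (2.04), Fbln1 (2.01), and the growth factor gene Nrg1 (2.00).

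Arc fell from 4 Hz to 10 Hz. All 6 libraries at 10 Hz (34.3 to 70.3 CPM, median 45.3) lay below all 6 at 4 Hz (79.6 to 152 CPM, median 109), and the mean at 10 Hz was 0.435 times that at 4 Hz. The log2 fold change was −1.20 ± 0.18 with an edgeR quasi-likelihood adjusted p of 9.72e-05 over all genes tested, where 5.64% of genes were called lower. A gene was called where its adjusted p was under 0.05 and its log2 fold change was over 0.5 in size. The 2-sided exact permutation test gave p = 0.00216 on CPM and on TPM, the smallest value that 6 against 6 libraries allow. The call was lost when a measure of library content was added to the edgeR fit. The log2 fold change was −0.67 (adjusted p = 0.506) with the log2 share of small non-polyadenylated RNA as covariate, −0.65 (adjusted p = 0.160) with that of ribosomal RNA, and −0.58 (adjusted p = 0.0614) with the log2 sum of the muscle markers, which was added after the data were seen. Over all 13318 genes, 1460 were called in this comparison without a covariate, and 0, 18, and 59 with these covariates in the same order. The loss was thus not particular to Arc.

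Those measures also differed between the conditions. The small RNA list, 27 identifiers for RNAs without a poly(A) tail of which 25 had counts, took 97.9 to 168 CPM in control, 15.6 to 70.2 at 1 Hz, 19.3 to 51.1 at 4 Hz, and 38.4 to 274 at 10 Hz. Ribosomal RNA took 1.16% ± 0.234 of counts in control, 0.268% ± 0.199 at 1 Hz, 0.309% ± 0.159 at 4 Hz, and 1.11% ± 0.667 at 10 Hz. Both were low at 1 Hz and 4 Hz, where Arc was high. The libraries were made from poly(A)-selected RNA, and the labels add that low-input samples were ribodepleted without saying which. With the small RNA share as covariate, the log2 fold change of Arc over control was 1.64 at 1 Hz, 1.00 at 4 Hz, and 0.32 at 10 Hz. It was 1.53, 0.99, and 0.33 with the ribosomal share, and 1.45, 0.72, and 0.15 with the muscle marker sum. For 4 Hz against 1 Hz, whose libraries had similar shares, it was −0.65, −0.55, and −0.72 with these covariates.

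Within conditions the relation to the small RNA share was not past the threshold. Both Arc and the share differed between conditions, with 1 Hz and 4 Hz apart from control, so no pooled correlation is given. At 1 Hz, Pearson's r of log2 Arc CPM and log2 share was −0.84 (exact permutation p = 0.0653, Benjamini-Hochberg adjusted over 4 conditions 0.261, rho −0.49, exact p = 0.356). It changed to 0.78 without the 2 libraries farthest from the median share, and to −0.31 without 1 Hz replicate 1 alone, so the relation rested on those libraries. At 10 Hz r was −0.67 (exact p = 0.140, adjusted 0.281, rho −0.60, exact p = 0.242, −0.64 without the 2 farthest), and −0.23 without 10 Hz replicate 6. At 4 Hz r was −0.36 (exact p = 0.472, adjusted 0.630, rho −0.54, exact p = 0.297, −0.22 without the 2 farthest). In control r was 0.18 (exact p = 0.751, adjusted 0.751, rho −0.09, exact p = 0.919, −0.72 without the 2 farthest).

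The relation to ribosomal RNA was stronger at 1 Hz. There r was −0.93 (exact p = 0.00417, adjusted over 4 conditions 0.0167, rho −0.94, exact p = 0.0167), −0.96 without the 2 farthest libraries and −0.82 to −0.99 with any 1 library left out. Its adjusted p was 0.0833 over all 20 correlations computed, which were 5 measures in 4 conditions. At 4 Hz r was −0.78 (exact p = 0.0667, adjusted 0.133, rho −0.77, exact p = 0.103, −0.68 without the 2 farthest), at 10 Hz −0.58 (exact p = 0.193, adjusted 0.257, rho −0.26, exact p = 0.658, −0.16 without the 2 farthest), and in control −0.04 (exact p = 0.933, adjusted 0.933, rho −0.09, exact p = 0.919, 0.14 without the 2 farthest).

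The correlation with the muscle markers was positive in all 4 conditions, and it passed the threshold at 4 Hz and 10 Hz when adjusted over the 4 conditions alone. With the log2 muscle marker sum, chosen after the data were seen, r was 0.61 in control (exact p = 0.206, adjusted 0.206, rho 0.60, exact p = 0.242, 0.88 without the 2 farthest), and 0.75 at 1 Hz (exact p = 0.0653, adjusted 0.0870, rho 0.94, exact p = 0.0167, 0.38 without the 2 farthest). It was 0.87 at 4 Hz (exact p = 0.0208, adjusted 0.0444, rho 0.83, exact p = 0.0583, 0.42 without the 2 farthest), and 0.89 at 10 Hz (exact p = 0.0222, adjusted 0.0444, rho 0.71, exact p = 0.136). At 10 Hz r was 0.10 without the 2 farthest libraries, on which the relation there rests. Over all 20 correlations the adjusted p was 0.148 at both frequencies.

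**Figure D2:**
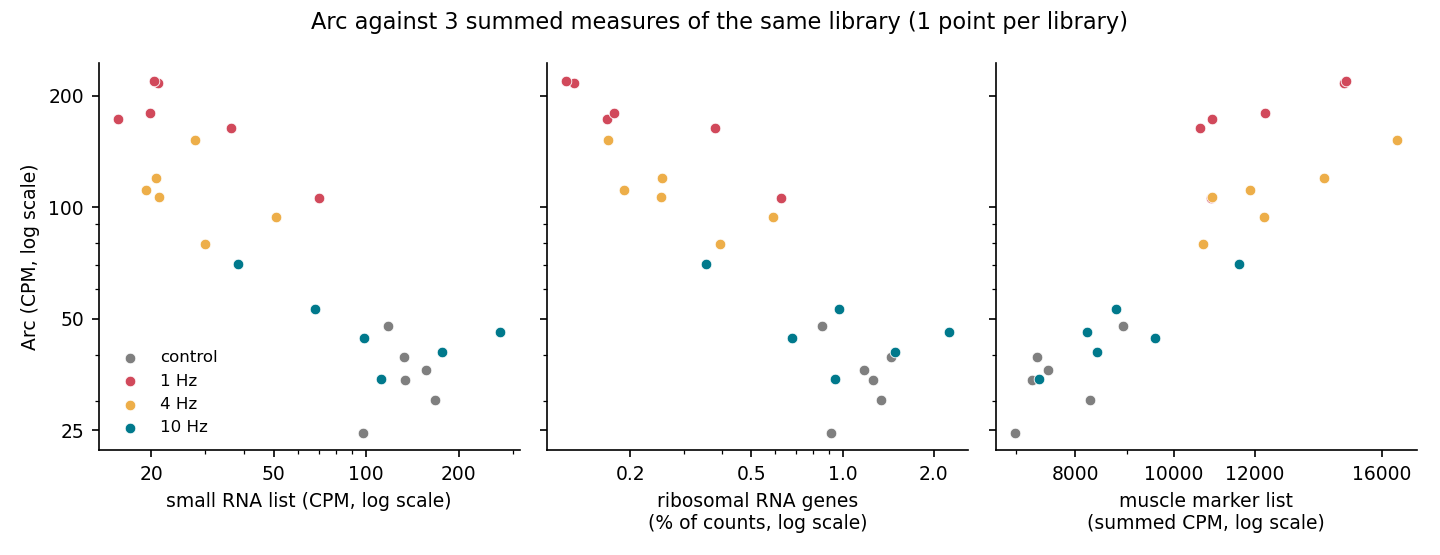
Arc CPM against the small RNA list (left), the share of counts in ribosomal RNA genes (middle), and the summed muscle markers (right), on log axes, with 1 point per library colored by condition. The 1 Hz and 4 Hz libraries lie at high Arc, low small RNA and ribosomal RNA, and high muscle marker levels, and apart from 1 Hz replicate 1 the 1 Hz libraries lie above the 4 Hz libraries at like muscle marker levels.

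Per 1000 CPM of muscle markers, Arc was at 4.58 ± 0.808 CPM in control, 14.2 ± 2.24 at 1 Hz, 8.67 ± 0.937 at 4 Hz, and 5.31 ± 0.683 at 10 Hz. The 10 Hz libraries (4.65 to 6.07) lay below all 4 Hz libraries (7.45 to 9.75), with a 2-sided exact permutation p of 0.00216 for this ratio, which was chosen after the data were seen. The 1 Hz and 4 Hz libraries again lay above all controls on this scale (3.53 to 5.36), and the 10 Hz libraries overlapped them.

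The other immediate early genes did not share 1 pattern with Arc. A list of 22 immediate early transcription factors, the regulators that an activity stimulus switches on first, held 20 tested genes, since Npas4 and Egr4 were at means of 0.342 CPM or less. At 1 Hz, 8 of the 20 rose and 3 fell, where 9.34% of all genes tested rose and 8.99% fell, and their median log2 fold change was 0.27 against −0.01 over all genes. At 4 Hz, 2 rose and 6 fell, where 10.5% of all genes rose and 9.61% fell, with a median of −0.20. At 10 Hz none rose and 4 fell, where 1.24% of all genes rose and 0.623% fell, with a median of −0.18.

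Csrnp1, a nuclear factor first found as an axin-induced gene, had the largest rise of this list at 1 Hz. It was at 50.5 to 67.6 CPM (median 60.4) in control, 85.6 to 135 (median 115) at 1 Hz, 41.8 to 56.6 (median 46.5) at 4 Hz, and 31.1 to 52.0 (median 38.7) at 10 Hz. All 1 Hz libraries lay above all others. Its log2 fold change over control was 0.95 ± 0.12 at 1 Hz and −0.56 ± 0.12 at 10 Hz (edgeR adjusted p = 3.84e-06 and 0.00736), and it was −0.31 ± 0.12 and not called at 4 Hz.

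Fosb, a partner of Jun in the AP-1 dimer, was high at 1 Hz in 5 of 6 libraries. It was at 15.5 to 29.3 CPM (median 24.6) in control, 23.9 to 47.1 (median 44.2) at 1 Hz, 10.3 to 15.5 (median 13.2) at 4 Hz, and 8.85 to 24.4 (median 17.7) at 10 Hz. The lowest 1 Hz library, replicate 1, lay within the control range. It rose by 0.83 ± 0.20 at 1 Hz and had a log2 fold change of −0.83 ± 0.21 at 4 Hz (edgeR adjusted p = 0.00216 and 0.00272).

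The other members that rose at 1 Hz were Klf4 (log2 fold change 0.72), Egr3 (0.69), Nr4a3 (0.64), Egr2 (0.58), Atf3 (0.58), and Jund (0.55). Klf4 and the Egr genes encode zinc finger factors, Nr4a3 an orphan nuclear receptor, Atf3 a stress-induced factor of the CREB family, and Jund a steadier member of the Jun family. Of these 8, only Nr4a3 was also called at 4 Hz in the same direction, at 0.85, where it was joined by Junb (0.94). Junb, a Jun protein that maintains muscle mass, was at 155 to 250 CPM in control, 193 to 351 at 1 Hz, 341 to 583 at 4 Hz, and 204 to 303 at 10 Hz. Its 4 Hz libraries thus lay above all control and all 10 Hz libraries.

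Fos, the most used marker of recent activity beside Arc, moved the other way. It was at 21.8 to 37.6 CPM (median 27.4) in control, 9.55 to 18.1 (median 11.2) at 1 Hz, 4.74 to 7.86 (median 5.93) at 4 Hz, and 6.96 to 24.4 (median 12.4) at 10 Hz. Every 1 Hz and 4 Hz library was below every control, and at 10 Hz replicates 1, 2, and 3 were at 17.5, 21.7, and 24.4 CPM while replicates 4, 5, and 6 were at 7.37, 7.18, and 6.96 CPM. The log2 fold change over control was −1.26 ± 0.25 at 1 Hz, −2.26 ± 0.27 at 4 Hz, and −1.01 ± 0.25 at 10 Hz (edgeR adjusted p = 0.000473, 7.49e-07, and 0.0174). Nr4a2 (−1.12) and Ier2 (−0.54) also fell at 1 Hz. At 4 Hz Nr4a2 (−1.71), Egr1 (−1.18), Jun (−0.88), and Ier5 (−0.59) fell with Fos and Fosb, and at 10 Hz Egr1 (−1.09), Egr2 (−0.75), and Csrnp1 fell with Fos.

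Between 4 Hz and 1 Hz, a comparison added for these lists after their values were seen, 7 of the 20 factors fell and 1 rose, where 1.4% of all genes fell and 1.59% rose. Those that fell were Fosb (−1.66), Csrnp1 (−1.26), Fos (−1.003), Egr1 (−0.96), Egr2 (−0.86), Klf4 (−0.85), and Ier5 (−0.59), and the 1 that rose was Junb (0.61). The counts were again 7 and 1 with each of the 3 covariates, where 182, 185, and 207 of all genes fell and 228, 217, and 275 rose. The counts against control moved more. With the small RNA or the ribosomal share as covariate 0 of the 20 were called at 1 Hz by edgeR (at an unadjusted p below 0.05, 6 higher with the first, 5 higher and 2 lower with the second), where over all genes 1 and 2 were called. With the muscle marker sum, 3 rose at 1 Hz, where 99 of all genes rose. At 4 Hz 2, 3, and 4 of the 20 fell with the 3 covariates in this order, and at 10 Hz 4 fell with each of them. Over all genes 85, 321, and 547 fell at 4 Hz with these covariates, and 80, 93, and 106 at 10 Hz. The count of the 20 at 10 Hz was 2 without control replicate 2.

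From 4 Hz to 10 Hz, the tested step of Arc, Junb (−0.77) and Nr4a3 (−0.81) fell as Arc did, and Fos (1.25) and Nr4a2 (1.19) rose. The other 16 factors were not called, where 5.32% of all genes rose in this comparison. With each of the 3 covariates 0 of the 20 were called by edgeR, and 3 to 7 had an unadjusted p below 0.05. Over all genes 0, 18, and 59 were called with them.

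A second list held 25 effector genes of activity, which encode kinases, phosphatases, and secreted or synaptic proteins in place of transcription factors. In it 22 genes were tested, while Nptx2, Vgf, and Scg2 were at means of 0.686 CPM or less. At 1 Hz 1 rose and 3 fell, where 9.34% of all genes rose and 8.99% fell, so these counts are near the share over all genes. At 4 Hz 1 rose and 11 fell, where 10.5% of all genes rose and 9.61% fell. At 10 Hz none rose and 6 fell, where 1.24% of all genes rose and 0.623% fell. The median log2 fold change was 0.07, −0.49, and −0.27 in this order.

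Inhba, which encodes the beta A subunit of activin and inhibin, was the effector gene that rose. It was at 136 to 270 CPM (median 220) in control, 299 to 659 (median 537) at 1 Hz, 301 to 449 (median 381) at 4 Hz, and 170 to 348 (median 270) at 10 Hz. All 1 Hz and 4 Hz libraries lay above all controls, as for Arc, and the 10 Hz libraries overlapped both. The log2 fold change was 1.24 ± 0.19 at 1 Hz and 0.83 ± 0.19 at 4 Hz (edgeR adjusted p = 2.79e-05 and 0.00103), and Inhba fell by 0.54 from 4 Hz to 10 Hz (adjusted p = 0.0348).

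Ccn1, a secreted matricellular protein and target of YAP and SRF, fell at every frequency. It was at 311 to 425 CPM (median 383) in control, 134 to 235 (median 189) at 1 Hz, 71.4 to 133 (median 79.9) at 4 Hz, and 105 to 237 (median 160) at 10 Hz. No stimulated library reached the control range. The log2 fold change was −1.07 ± 0.17, −2.11 ± 0.18, and −1.18 ± 0.17 at 1, 4, and 10 Hz (edgeR adjusted p = 6.09e-05, 2.53e-08, and 0.000461).

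**Figure D3:**
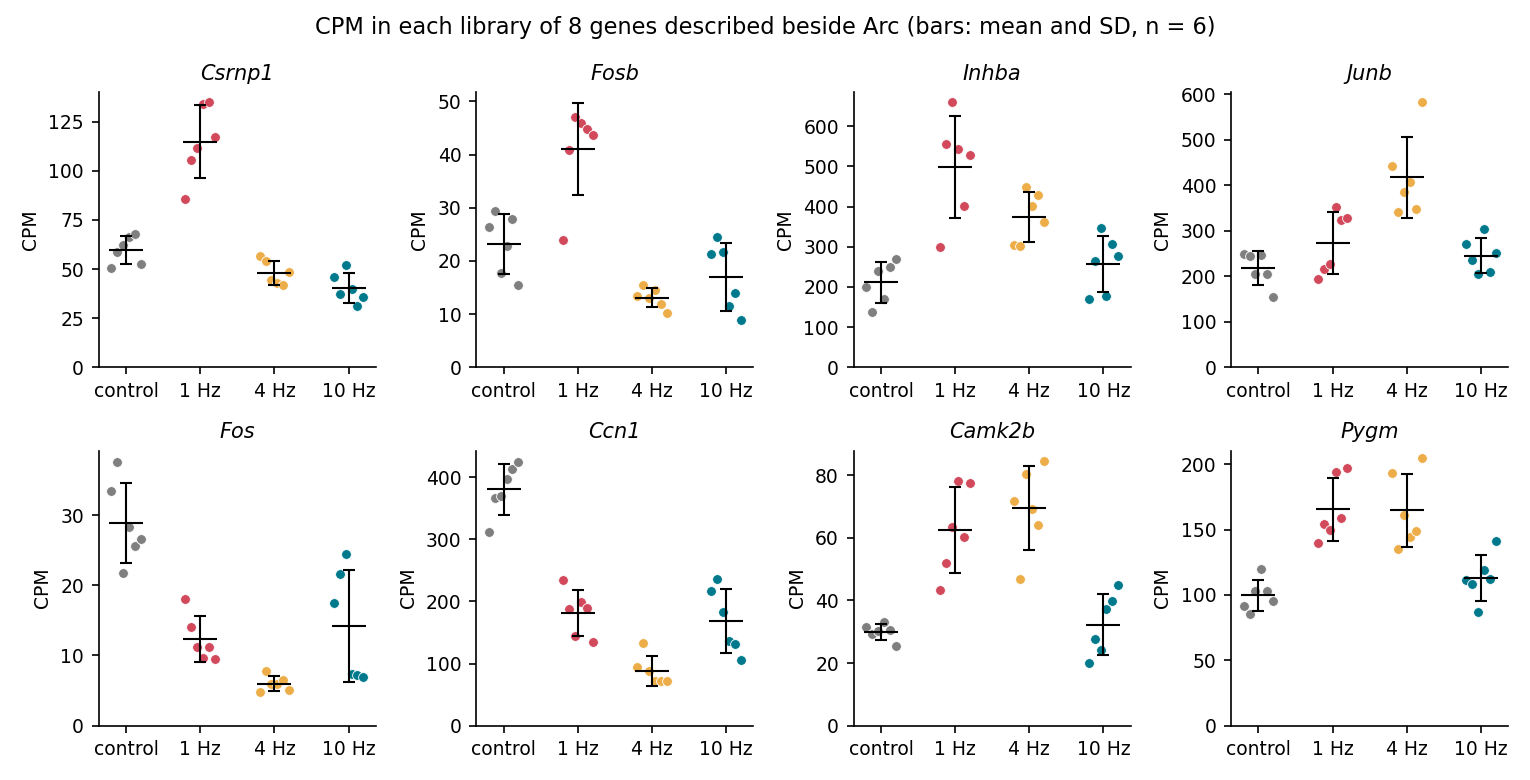
CPM in each library of 8 genes, with the mean and SD of 6 libraries per condition as bars. Csrnp1 and Fosb are high at 1 Hz, Inhba, Camk2b, and Pygm are high at 1 Hz and 4 Hz as Arc is, Junb is highest at 4 Hz, and Fos and Ccn1 are highest in control.

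The other effectors that fell at 4 Hz were the negative regulators of MAP kinase signaling Dusp1 (−1.46), Dusp6 (−1.19), Dusp4 (−0.75), and Dusp5 (−0.68), the G protein regulator Rgs2 (−1.67), Trib1 (−1.15), Gadd45b (−0.83), the polo-like kinase Plk2 (−0.62), Arl4d (−0.62), and the neurotrophin gene Bdnf (−0.52). Rgs2 (−0.77) and Arl4d (−0.81) also fell at 1 Hz. At 10 Hz Rgs2 (−1.03), Trib1 (−0.93), Dusp1 (−0.89), Bdnf (−0.73), and Dusp6 (−0.60) fell with Ccn1. Homer1, whose product sits beside Arc in the synapse, had log2 fold changes of 0.14, 0.09, and −0.12 at 1, 4, and 10 Hz and was not called.

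From 1 Hz to 4 Hz 10 of the 22 effectors fell and none rose, where 1.4% of all genes fell and 1.59% rose, among them all 4 Dusp genes (−0.73 to −1.13) and Ccn1 (−1.04). With the covariates 10, 11, and 10 fell, where 182, 185, and 207 of all genes fell. At 1 Hz, 0 of the 22 were called against control with the small RNA or the ribosomal share as covariate (4 and 2 higher at an unadjusted p below 0.05, edgeR), and 1 rose with the muscle marker sum. Over all genes 1 and 2 were called at 1 Hz with the 2 shares, and 99 rose with the marker sum. At 4 Hz 3, 5, and 3 of the 22 fell with the 3 covariates, and at 10 Hz 6 with each. Over all genes 85, 321, and 547 fell at 4 Hz with them, and 80, 93, and 106 at 10 Hz. From 4 Hz to 10 Hz 5 rose (Ccn1 0.93, Gadd45b 0.65, Dusp6 0.60, Dusp1 0.57, Dusp4 0.53) and 2 fell (Inhba and Per1, −0.52). That count of 7 was 3 without 10 Hz replicate 3 and 0 with each covariate, where 2 to 7 had an unadjusted p below 0.05. Over all genes 0, 18, and 59 were called in that comparison with the covariates.

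**Figure D4:**
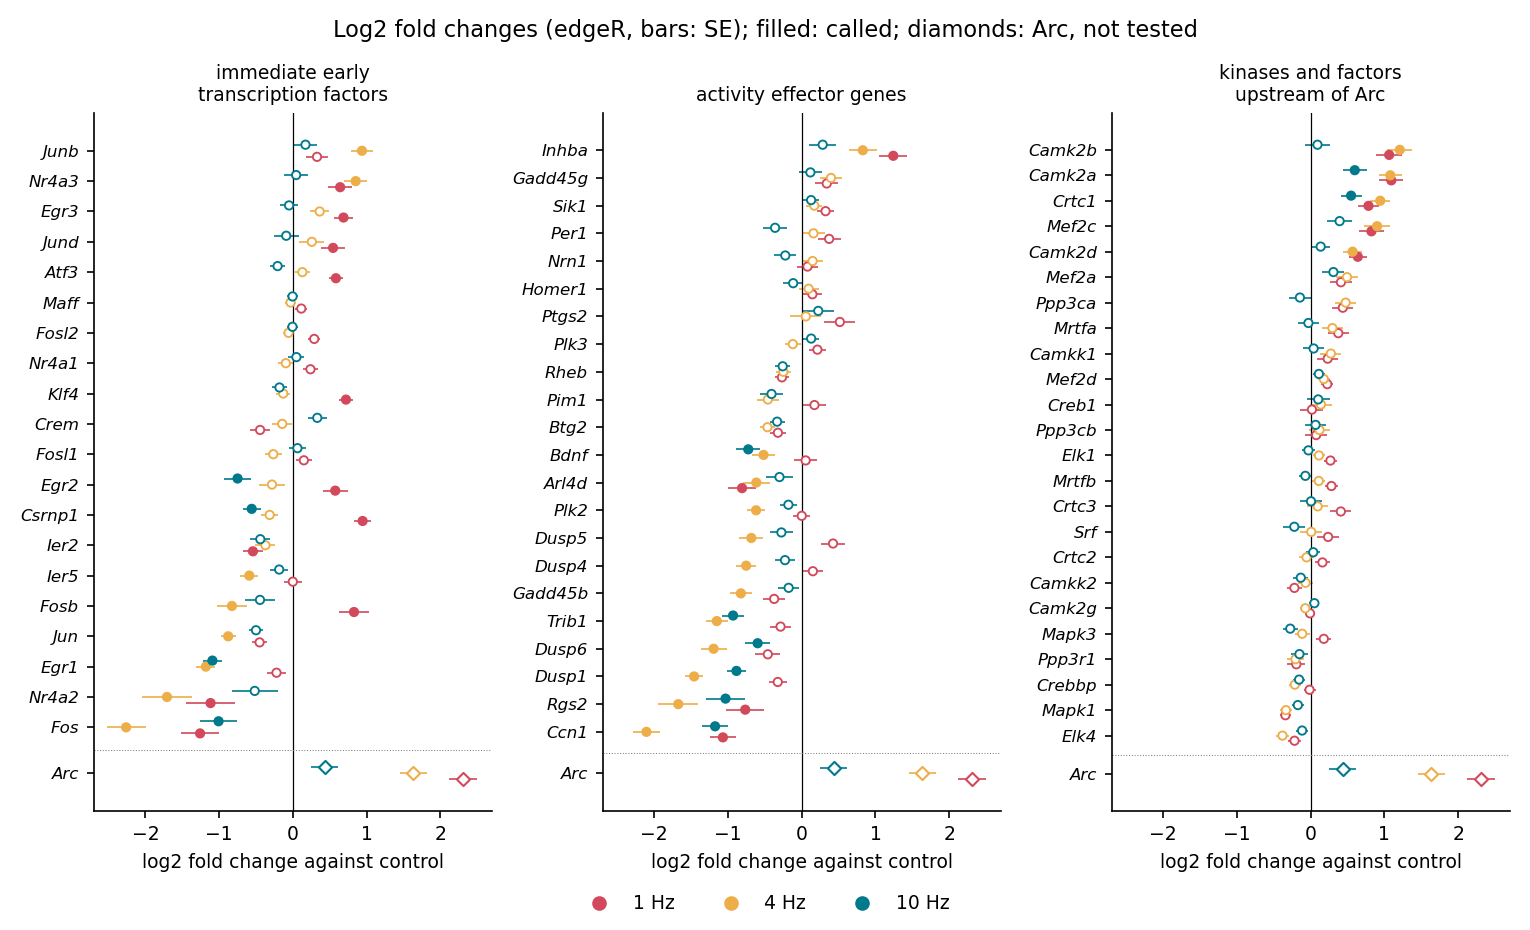
Log2 fold change over control (edgeR, bars show the SE) at 1, 4, and 10 Hz of the tested immediate early transcription factors, effector genes, and upstream regulators, ordered by the value at 4 Hz, with filled circles for genes called and open diamonds for Arc, which was not tested. Arc lies to the right of every listed gene at 1 Hz and 4 Hz. For listed genes of at least 5 CPM, its place at 1 Hz follows from the rule that chose Arc. The values at 4 Hz use the same control libraries.

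Genes that act upstream of Arc in neurons rose with it at 1 Hz and 4 Hz. Of 25 such kinases, phosphatases, coactivators, and factors, 24 were tested, and Camk4 was at a mean of 0.184 CPM or less. At both frequencies the same 5 rose and none fell, where 9.34% of all genes rose at 1 Hz and 10.5% at 4 Hz. They were Camk2a (1.09 and 1.08), Camk2b (1.06 and 1.21), and Camk2d (0.64 and 0.57), genes of the calcium- and calmodulin-dependent kinase CaMKII, the factor Mef2c (0.82 and 0.90), and the CREB coactivator Crtc1 (0.78 and 0.94). Counts are per gene and do not tell apart different products of the same gene, so a rise of the kinase itself was not tested. At 10 Hz Camk2a (0.60) and Crtc1 (0.55) rose, a count of 2 that was 0 without control replicate 2, 10 Hz replicate 4, or 10 Hz replicate 6, 1 without 3 other libraries, and 0 or 1 with the covariates. Over all genes 165 rose at 10 Hz, and 124, 148, and 150 with the covariates. The constitutive factors Creb1 and Srf had log2 fold changes of 0.02 and 0.24 at 1 Hz and were not called.

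Camk2b was at 25.3 to 33.1 CPM (median 30.4) in control, 43.4 to 78.3 (median 61.9) at 1 Hz, 46.7 to 84.7 (median 70.6) at 4 Hz, and 20.0 to 44.8 (median 32.5) at 10 Hz. Neither the 1 Hz nor the 4 Hz libraries overlapped the controls, and those at 4 Hz did not overlap those at 10 Hz, as for Arc. It fell by 1.12 from 4 Hz to 10 Hz (edgeR adjusted p = 0.000113), together with the calcineurin subunit gene Ppp3ca (−0.62) and Mef2c (−0.51). The count of 3 in that step was 5 without 4 Hz replicate 2, 10 Hz replicate 5, or 10 Hz replicate 6, and 0 with each covariate, where 1 to 4 had an unadjusted p below 0.05. Over all genes 0, 18, and 59 were called in that step with the covariates. Between 4 Hz and 1 Hz 0 of the 24 were called by edgeR and by DESeq2, and 4 were lower at an unadjusted p below 0.05 with each tool. Against control, 0 of the 24 were called with the small RNA share as covariate at 1 Hz and at 4 Hz (2 higher and 1 lower, then 4 higher and 1 lower, at an unadjusted p below 0.05). Over all 13318 genes, 1 and 216 were called there. With the ribosomal share, 0 of the 24 were called at 1 Hz (3 higher at an unadjusted p below 0.05), and at 4 Hz 4 rose and none fell. Over all genes 2 were called with it at 1 Hz, and at 4 Hz 382 rose and 321 fell.

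Most of the muscle markers moved with Camk2a, Camk2b, and Mef2c at 1 Hz and 4 Hz. Of the 14 muscle markers 10 rose at 1 Hz, 11 at 4 Hz, and 2 at 10 Hz, and none fell, where 9.34%, 10.5%, and 1.24% of all genes rose. From 4 Hz to 10 Hz 9 of them fell, where 5.64% of all genes fell. With the muscle marker sum as covariate 0 of the 24 upstream genes were called at 1 Hz, and 1 rose and 2 fell at 4 Hz. Over all genes 141 were called with it at 1 Hz, and at 4 Hz 619 rose and 547 fell. The part of muscle maturation in the levels of Arc was not tested.

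Of 17 partners of the Arc protein, the AMPA receptor gene Gria2 and the receptor's auxiliary subunit gene Cacng2 were at means of 0.115 CPM or less, and 15 were tested. The endocytic adaptor gene Ap2a1 was called at 1 Hz (0.53 ± 0.13), and the endophilin gene Sh3gl3 fell from 4 Hz to 10 Hz (−0.68 ± 0.24). These are counts of 1 of 15, where 9.34% of all genes rose at 1 Hz and 5.64% fell from 4 Hz to 10 Hz, and 1 of 15 is near those shares. The first count of 1 was 0 without control replicate 3 or 1 Hz replicate 4, 5, or 6, and the second was 0 without 4 Hz replicate 1, 3, or 4, or 10 Hz replicate 1 or 4. Both were 0 with each of the 3 covariates, where over all genes 1, 2, and 141 were called at 1 Hz and 0, 18, and 59 from 4 Hz to 10 Hz. Dnm2, which encodes the dynamin that pinches off vesicles, had log2 fold changes of 0.39, 0.15, and −0.10. At 4 Hz and at 10 Hz 0 of the 15 were called by edgeR and 0 by DESeq2, and 5 and 2 had an unadjusted p below 0.05 in edgeR. The count at 4 Hz was 1 without control replicate 2 or 3, or 4 Hz replicate 2 or 6.

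Genes that descend from retrotransposon Gag as Arc does were mostly below the filter on low counts. Of 19 such genes 5 were tested, namely Peg10, Rtl8a, Rtl8b, Pnma8b, and Moap1, at means of 12.9 to 20.0 CPM in every condition. Of these 0 were called by edgeR in each of the comparisons with control, with 0 at an unadjusted p below 0.05, and 0 from 4 Hz to 10 Hz, with 1. DESeq2, which also tested rarer members, called 0, 1, and 0 at 1, 4, and 10 Hz and 1 from 4 Hz to 10 Hz. Their log2 fold changes over control lay between −0.34 and 0.20, against 2.31 for Arc at 1 Hz.

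The tested neighbors of Arc on chromosome 15 were not called higher at 1 Hz or 4 Hz. Within 150 kb, 5 other genes were tested. The rest were below the filter on low counts or, as Gm32994, had no row in the count table. Among those below the filter, Mroh4, 32730 bp away, had means of 0.14 CPM in control, 0.37 at 1 Hz, 0.49 at 4 Hz, and 0.31 at 10 Hz. Jrk, 25731 bp away, was at 20.2 ± 4.76 CPM in control, 11.2 ± 1.83 at 1 Hz, 10.9 ± 2.28 at 4 Hz, and 18.0 ± 4.13 at 10 Hz, and it fell by 0.88 at 1 Hz and by 0.90 at 4 Hz (edgeR adjusted p = 0.000400 and 0.000207). Slurp1, 51748 bp away, fell by 0.72 at 1 Hz and by 1.45 at 4 Hz (adjusted p = 0.0106 and 1.40e-05). Of all genes tested, 8.99% fell at 1 Hz and 9.61% at 4 Hz. Psca, Them6, and Lynx1 were not called in any of the 3 comparisons with control, with log2 fold changes from −0.40 to 0.07.

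Genes were also ordered by their likeness to Arc from library to library within conditions. Likeness was Pearson's r of the log2 CPM deviations from the condition mean over 24 libraries, given as a description. The libraries share depth and the content measures above, and 20 degrees of freedom remain. Over 10069 genes with a mean of at least 5 CPM, predicted genes and pseudogenes left out, the median r was 0.02, 1% lay above 0.69, and 88 exceeded 0.7. The 6 highest were Pygm (0.87), muscle glycogen phosphorylase; Ncs1 (0.86), a neuronal calcium sensor; Midn (0.86), a factor of proteasomal degradation of immediate early proteins; Atp2a1 (0.85), the calcium pump of the fast-fiber reticulum; Cacna1s (0.85), the voltage sensor of excitation-contraction coupling; and Cox10 (0.85), an enzyme of heme A synthesis.

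Pygm was at 85.7 to 120 CPM (median 99.2) in control, 140 to 197 (median 157) at 1 Hz, 135 to 205 (median 155) at 4 Hz, and 87.1 to 141 (median 112) at 10 Hz. All its 1 Hz and 4 Hz libraries lay above all controls, as those of Arc did. Its r with Arc was 0.94 in control, 0.87 at 1 Hz, 0.83 at 4 Hz, and 0.89 at 10 Hz (n = 6 each). Its log2 fold change was 0.73 at 1 Hz and 0.72 at 4 Hz, so it had no difference between them (−0.01 ± 0.12) where Arc had −0.67 ± 0.17. The lowest r of the 6 genes with any 1 library left out was 0.80, for Cox10. Of the 6, 4 stayed among the highest 6 on TPM or by Spearman's rho, 3 without control replicate 2, and 2 when the slope on the small RNA share was also removed.

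**Figure D5:**
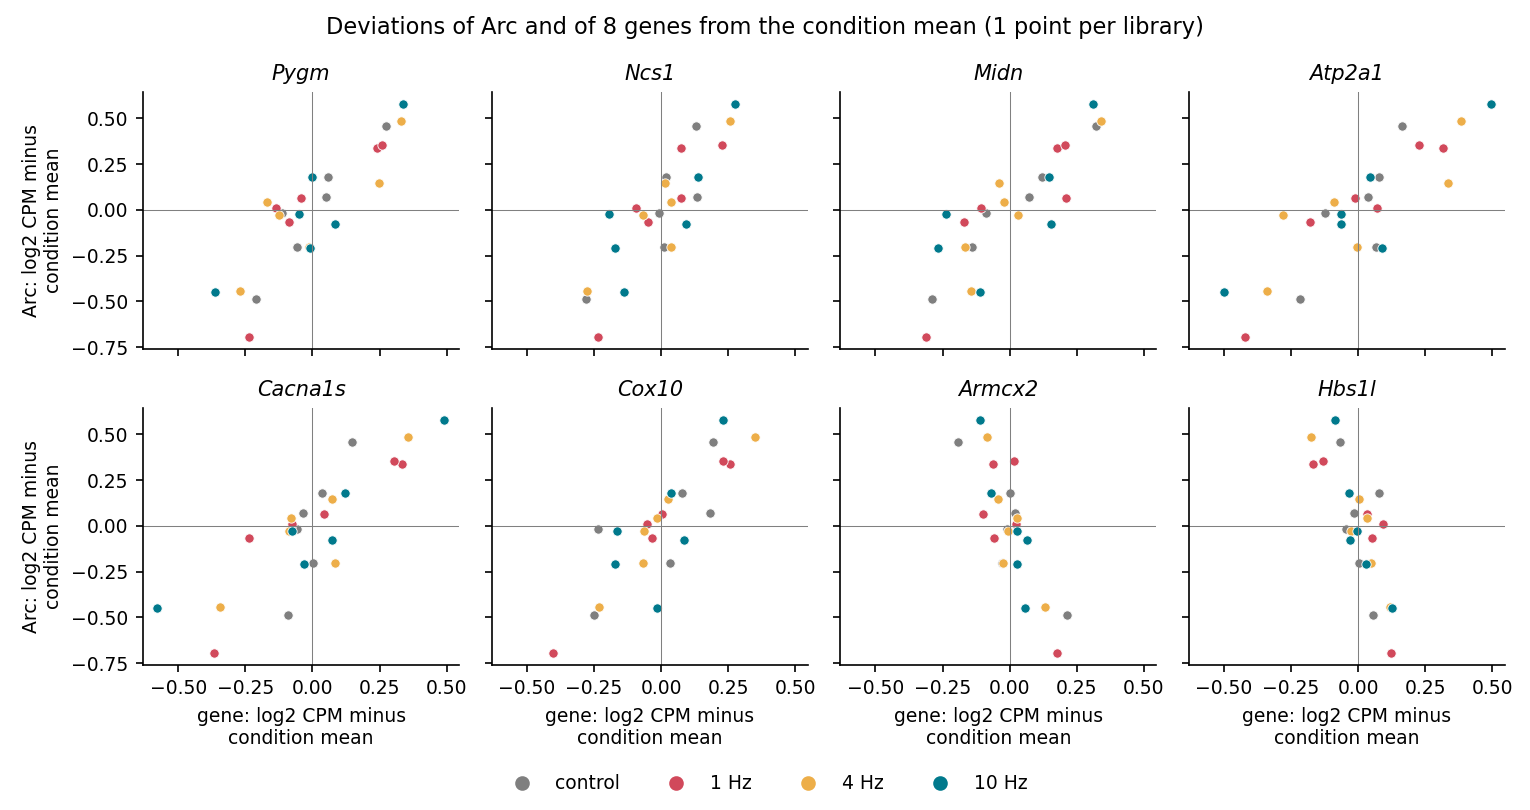
Deviation of Arc (vertical) and of 8 genes (horizontal) from the mean of their condition in log2 CPM, with 1 point per library. Points of all 4 conditions rise together for the 6 genes with the highest r (0.85 to 0.87) and fall for Armcx2 and Hbs1l (−0.80 and −0.79).

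The lowest values belonged to Armcx2 (−0.80), Hbs1l (−0.79), Zfp955b (−0.79), Ptgr1 (−0.77), Grb2 (−0.76), and Slc4a1ap (−0.76). Hbs1l acts in the rescue of stalled ribosomes and Grb2 is the adaptor that links receptors to Ras. Grb2 varied little, at means of 127 to 131 CPM in the 4 conditions. Over the 24 values themselves, which also hold the differences between conditions, Ece1 (0.95), Cacna1s (0.95), Mlec (0.95), Ttl (0.94), Ets2 (0.94), and Myh8 (0.94) were highest. Ece1 is an endothelin-converting enzyme, Ets2 an ETS factor, and Myh8 the perinatal myosin heavy chain.

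Within conditions the immediate early factors as a group did not follow Arc. Their median r was 0.01 (20 genes, range −0.69 to 0.72), against 0.28 for the upstream genes (24 genes, range −0.53 to 0.78). The partners of the Arc protein had a like median of 0.27 (13 genes, range −0.27 to 0.68). The median was −0.13 for the effectors (21 genes, range −0.57 to 0.39) and 0.03 for the gag-derived genes (5 genes, range −0.61 to 0.44). Jund (0.72) and Junb (0.56) were the highest of the factors and Fos (−0.69) and Nr4a2 (−0.56) the lowest. Camk2b (0.78, place 24 of 10069) and Crtc1 (0.66) were the highest upstream genes. Inhba, which shared the pattern of Arc over the conditions (0.83 over the 24 values), had an r of 0.31 within them.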

How the data were processed

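RNA of 24 tissues was poly(A)-selected, made into directional libraries, and sequenced as paired-end reads by the authors, who processed the reads with the nf-core RNA-seq pipeline against GRCm39. The Ensembl release and strand use in counting are not given in the sources used here, and the submitters' processing notes also name mm10 and hg19 with no role. The authors deposited salmon estimated counts (expected counts per gene, not normalized) and TPM. Every library column was mapped to its sample by title.

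Estimated counts were rounded. Genes were filtered with filterByExpr by condition, which left 13318 genes with 99.8% of counts, scaled by TMM, and tested in 1 edgeR 4.0.16 quasi-likelihood fit of 24 libraries (limma 3.58.1, R 4.3.3), with Benjamini-Hochberg adjustment over all genes tested. The SE is the log2 fold change over the square root of F. Alternatives were DESeq2 1.42.0, the tool of the study's own tests, and limma on log2(TPM + 1) and log2(TPM + 0.1). Log2 CPM used a prior count of 2. Correlations and exact permutation tests used Python 3.11.15, numpy 2.4.6, and scipy 1.17.1. On simulated data, 81.5% of 200 genes with a log2 fold change of 1 were called in 10 Hz against 4 Hz, over 13137 genes. The simulated libraries held no differences in RNA content between conditions such as the covariates measure, so this share need not hold for the real libraries.

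Arc, the gene lists, and the rules were chosen with earlier results of these data known. Lists were written from general knowledge. Genes named are the list members, the 6 highest and 6 lowest by likeness within conditions and the 6 highest over 24 values, the tested neighbors within 150 kb, and those near Arc by fold change at 1 Hz, of which 1 is not reported here. Total counts were 4085578 to 15194554 per library. Among 60 pairs of libraries of 1 condition, none agreed within sampling noise (chi-square per gene at least 3.16). Of the tested identifiers, 99.8% were found in GENCODE M39. No sequence is shown.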

Additional observations from a re-analysis of the deposited data

Results flagged for a closer look

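In 60 groups of 6 libraries, 4 held a library whose gap to the next passed Dixon's 95% critical value against the range of its group, and chance alone gives about 1 such group in 20. Arc per 1000 CPM of muscle markers was 9.73 in 1 Hz replicate 1, and the next value was 14.6. The same library had the lowest Fosb of 1 Hz, 23.9 CPM where the next was 40.9 CPM. The small RNA list took 51.1 CPM in 4 Hz replicate 3, with 29.8 CPM next. Ccn1 was at 133 CPM in 4 Hz replicate 2, with 93.8 CPM next.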

How the results depend on the processing

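Of 444 alternative values other than those without a library, 358 were taken as like the main result. Direction, side of the threshold, or spread was judged only for the fold changes and correlations of Arc. Most of the values were counts of genes called or kept, judged by size alone, with 0 against 0 taken as alike. The fall of Arc from 4 Hz to 10 Hz (−1.20) was past the threshold with total count scaling, DESeq2, no filter, a minimum of 5 CPM, limma on TPM, and the 12 libraries alone (adjusted p 7.29e-08 to 0.00211), and without any 1 library (−1.35 to −1.10). It was not past it with the small RNA share (−0.67), the ribosomal share (−0.65), or the muscle marker sum (−0.58) as covariate. Over all genes 0, 18, and 59 were called in that comparison with them, against 1460 in the main fit. These covariates, in this order, gave log2 fold changes over control of 1.64, 1.53, and 1.45 at 1 Hz and of 0.996, 0.99, and 0.72 at 4 Hz, and −1.32, −1.20, and −1.30 for 10 Hz against 1 Hz. The covariates themselves differ between the conditions, and the cause of these changes was not tested.

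Counts of called genes moved as follows, with the 3 covariates in the same order. Over all 13318 genes, calls against control went from 2441 to 1, 2, and 141 at 1 Hz. They went from 2676 to 216, 703, and 1166 at 4 Hz, and from 248 to 204, 241, and 256 at 10 Hz. At 1 Hz against control the transcription factors went from 11 to 0, 0, and 3, the effectors from 4 to 0, 0, and 1, the upstream genes from 5 to 0 with each, and the partners from 1 to 0 with each, as they also did with total count scaling and with limma on TPM. At 4 Hz against control the transcription factors went from 8 to 2, 3, and 5, the effectors from 12 to 3, 5, and 4, and the upstream genes from 5 to 0, 4, and 3. At 10 Hz against control the upstream genes went from 2 to 1, 1, and 0, to 0 with limma on TPM, and to 1 in the 12 libraries alone, where the transcription factors went from 4 to 2. From 4 Hz to 10 Hz each covariate gave 0 for the transcription factors (4), effectors (7), upstream genes (3), and partners (1). The partners there were also at 0 with total count scaling, no filter, a minimum of 5 CPM, limma on TPM, and the 12 libraries alone. With the adjusted p alone and no threshold on size, the effectors went to 11, the upstream genes to 14, and the partners to 4 at 1 Hz. At 4 Hz the upstream genes went to 10 and the partners from 0 to 4, and at 10 Hz the partners from 0 to 1. For 4 Hz against 1 Hz the transcription factors went to 13 and the partners from 0 to 2, as with limma on log2(TPM + 0.1), and from 4 Hz to 10 Hz the transcription factors went to 10, the upstream genes to 7, and the partners to 6. For 4 Hz against control the partners were at 1 in the 12 libraries alone, and the gag-derived genes at 1 with DESeq2, as they were from 4 Hz to 10 Hz with DESeq2 or no filter.

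Leaving out 1 library gave 0 to 1 partners in 1 Hz and in 4 Hz against control and in 10 Hz against 4 Hz, 2 to 6 transcription factors and 0 to 2 upstream genes at 10 Hz against control, and 2 to 5 upstream genes and 3 to 9 effectors from 4 Hz to 10 Hz. The correlation of Arc with the small RNA share in control ranged from −0.85 without control replicate 2 to 0.56 without control replicate 4, and it was −0.040 with ribosomal RNA, which at 1 Hz gave −0.93, past the threshold. Of the 6 genes most like Arc, 3 to 6 stayed without 1 library and 2 with the slope on the small RNA share. Of the 6 least like it, 2 to 6 stayed without 1 library and 2 on TPM, by Spearman's rho, or with that slope.

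Replicate numbers did not pair the samples: same-numbered libraries of different conditions correlated at −0.184 to 0.362 in their deviations, above 0.1 in 10 of 36. Differently numbered libraries did so at −0.320 to 0.361, above 0.1 in 49 of 180. With the replicate block Arc fell by 1.20 from 4 Hz to 10 Hz (edgeR adjusted p = 2.85e-05), and the partners at 4 Hz against control went from 0 to 1. The counts behind Arc, 144 at the least, gave intervals narrower than the range over the wells of its condition.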
